A study of Mus musculus with 4 samples.

Results

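The 9 genes described here are the proneural and neuronal basic helix-loop-helix (bHLH) genes *Neurog1*, *Neurog2*, *Neurod1*, *Neurod2*, *Neurod4*, *Neurod6*, *Nhlh1* and *Nhlh2*, and the T-box gene *Eomes*. They were chosen by gene symbol, and all 9 were found once each among the 21091 entries of the expression files. RNA was sequenced from mouse neural progenitors, grown from embryonic brains as suspended spheres with EGF and FGF for 3 days. The 4 libraries, 1 in each group, came from C57BL/6 embryos. At each age, E11 and E14 (embryonic day 11 and 14), there was a control library (CTL, labelled WT) and a *Stat3* cKO library. In *Stat3* cKO, Nestin-Cre, which acts in neural progenitors, removes the floxed exons that encode the SH2 domain of STAT3 from both alleles. The study's animal methods describe controls that carry Nestin-Cre and 1 floxed *Stat3* allele, whereas the labels and the RNA-seq methods call them wild-type. If the controls lacked Cre, genotype and Cre cannot be told apart. The number of embryos behind each library is not given in the sources used here.

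Proneural bHLH factors pair with E proteins, bind E-box DNA (CANNTG) and push a dividing progenitor towards the neuronal fate. In the cortex, *Neurog1* and *Neurog2* act first, in radial glia, where they switch on Notch ligands that hold back neighboring cells. EOMES (TBR2) marks the intermediate progenitors that follow, NEUROD1 acts as these cells leave the cycle, and NEUROD2 and NEUROD6 are kept on in the excitatory neurons. *Neurod4* (Math3), *Nhlh1* and *Nhlh2* (NSCL1 and NSCL2) are switched on early and briefly in newborn neurons in many regions of the nervous system. Since these were bulk libraries, fewer cells of a type and less RNA per cell cannot be told apart.

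All values below are FPKM (fragments scaled to transcript length and library size) as deposited, so levels of different genes can be compared. A gene was counted as higher or lower when the ratio of 2 libraries reached 2, over genes whose mean reached 1 FPKM. With 1 library a group there was no spread between replicates and no test. Counting error was estimated from 822 olfactory receptor genes with a listed span of 880 to 1100 bases. Their lowest values fell on steps, and 1 step was taken as 1 fragment. From 84.6% to 93.2% of the low values, up to 3 steps, lay within 0.2 of a whole number of steps, which put the libraries at about 24300000 to 32100000 fragments. The 10 highest entries took 36.0% to 49.9% of the summed FPKM of a library. A 95% counting interval built on these estimated fragments is given in brackets after a ratio. It covers counting error only and says nothing of the spread between cultures.

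The targeted gene, *Stat3*, had 7.41 FPKM (CTL) and 6.74 (*Stat3* cKO) at E11, and 27.6 (CTL) and 9.55 (*Stat3* cKO) at E14. The level of *Stat3* RNA thus set the genotypes apart at E14 and hardly at E11. These values cover the whole gene and the deleted exons were not read separately, so they do not measure the deletion itself. The progenitor markers *Sox2* (128 to 284 FPKM) and *Nes* (41.2 to 111 FPKM) were high in all 4 libraries, as was the neuronal tubulin gene *Tubb3* (463 to 569 FPKM). A Y-linked gene, *Ddx3y*, stood at 0.0569 FPKM in E14 CTL and at 25.1 in E14 *Stat3* cKO and was listed at 0 in both E11 libraries, so sex cannot be told apart from genotype at E14, nor from stage in *Stat3* cKO. All 9 genes are autosomal. None of their listed spans overlapped another entry.

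The 9 genes lie on 8 chromosomes. As listed, *Neurog1* was at chr13:56351859-56353524, *Neurog2* at chr3:127336062-127338549, *Nhlh2* at chr3:101814067-101819415 and *Nhlh1* at chr1:173982422-173987727. The listed spans of the NeuroD genes were chr2:79292797-79296793 for *Neurod1*, chr11:98186730-98190959 for *Neurod2*, chr10:129705207-129717296 for *Neurod4* and chr6:55627812-55631257 for *Neurod6*. *Eomes* was listed at chr9:118387306-118395250. The submitters' processing notes name the builds mm8 and mm9 without saying which one these positions follow. In the GENCODE annotation of GRCm38, *Neurog1* has 1 exon, *Eomes* has 6, and each of the other 7 genes has 2.

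The 250 bases upstream of each start site were read from RefSeq (GRCm38.p6), and all 9 genes had an entry, *Neurod4* with 2 start sites. An E-box of the form CAGATG, the type preferred by neurogenin and NeuroD proteins, was searched on both strands. It was found upstream of *Nhlh1*, *Nhlh2* and *Neurod2*, which are shown because they are the genes of the group with this motif, and not upstream of the other 6 genes. Of all 32841 promoter windows of this length, 14.4% held it. Capitals mark CAGATG, which starts at position -203, -127 and -118 from the start site, in the order shown.
*Nhlh1* (chr1:172057597-172057846, minus strand): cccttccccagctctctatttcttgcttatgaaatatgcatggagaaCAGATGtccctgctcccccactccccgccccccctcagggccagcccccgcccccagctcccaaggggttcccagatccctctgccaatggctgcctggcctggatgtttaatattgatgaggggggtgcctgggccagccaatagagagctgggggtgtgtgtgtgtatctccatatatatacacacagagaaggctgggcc
*Nhlh2* (chr3:102009895-102010144, plus strand): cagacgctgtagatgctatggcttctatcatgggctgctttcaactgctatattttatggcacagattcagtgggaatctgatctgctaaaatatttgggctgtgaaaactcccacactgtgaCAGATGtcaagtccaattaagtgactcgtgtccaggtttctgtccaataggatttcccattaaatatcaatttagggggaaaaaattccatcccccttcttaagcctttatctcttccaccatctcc
*Neurod2* (chr11:98329646-98329895, minus strand): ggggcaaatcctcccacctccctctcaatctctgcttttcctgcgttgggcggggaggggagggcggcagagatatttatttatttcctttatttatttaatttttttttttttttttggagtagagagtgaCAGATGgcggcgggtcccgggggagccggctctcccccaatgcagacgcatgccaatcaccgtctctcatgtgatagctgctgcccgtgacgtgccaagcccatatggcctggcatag
Any E-box (CANNTG, which includes CAGATG) was present upstream of 5 of the 9 genes and in 66.2% of all windows. The STAT motif TTCNNNGAA was upstream of none of the 9 genes and in 7.02% of all windows. The N-box CACNAG, a site of HES repressors, was upstream of 4 of the 9 genes and in 36.7% of all windows. These matches describe letters in a short window, and no binding was measured.

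From E11 to E14 the group turned over (plot of levels by library). In CTL, 6 of the 9 genes were at least 2-fold lower at E14 and 2 were at least 2-fold higher, whereas 12.5% of 12430 genes were lower and 14.6% higher by that margin. In *Stat3* cKO, 7 of the 9 were lower and 2 were higher, against 11.7% and 10.1% of 12426 genes. *Neurog1*, *Neurod4* and *Nhlh1* passed the minimum through their E11 levels, and with a minimum of 5 FPKM, which leaves them out, 3 genes were lower in CTL and 4 in *Stat3* cKO. Over the 9 genes the log2 ratio of E14 to E11 had a median of -1.65 in CTL and -1.46 in *Stat3* cKO, beside 0.21 and 0.058 over all genes, and with the minimum of 5 FPKM the medians of the group were -0.93 and -1.04. *Eomes* was the gene that passed 2-fold in *Stat3* cKO only, a call lost with a pseudocount of 1 FPKM (log2 ratio -0.93), and whether its change differed between the genotypes could not be tested. All 9 genes moved in the same direction in both genotypes, under every scaling tried.

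**Figure D1:**
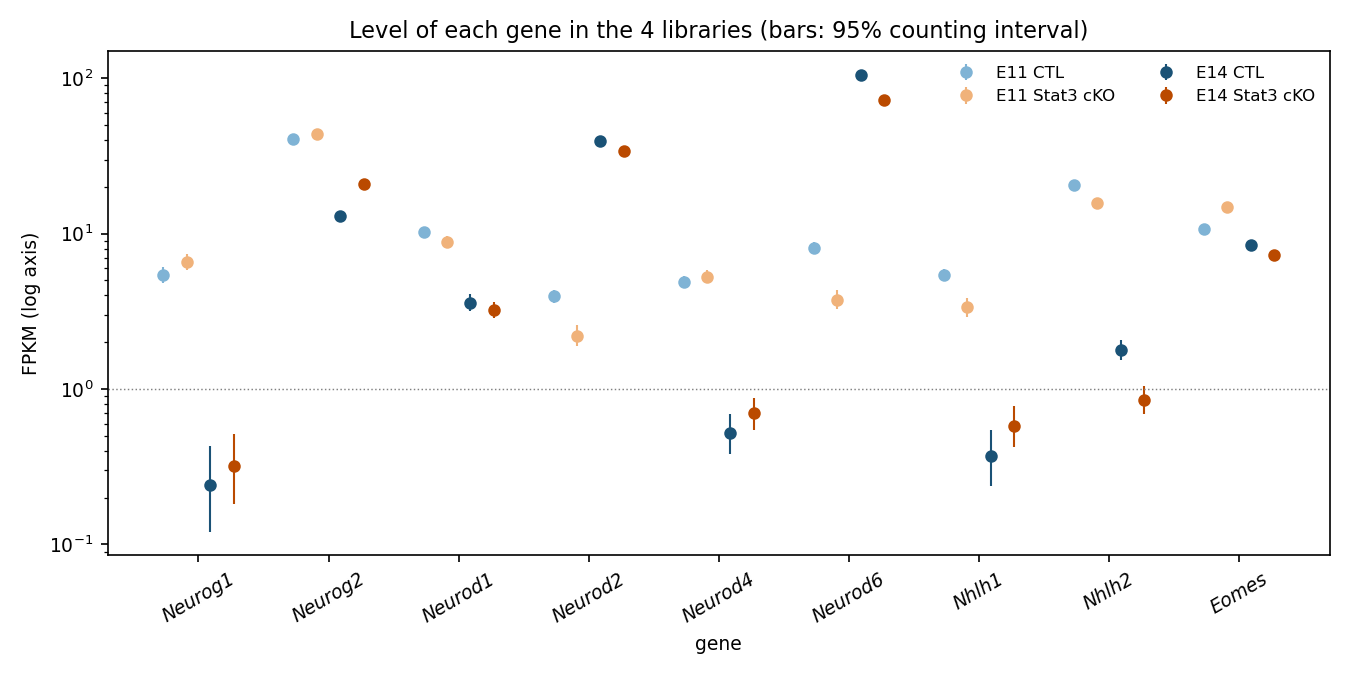
Level of each of the 9 genes (FPKM, log axis) in the 4 libraries, 1 point per library, with bars for the 95% counting interval and a dotted line at 1 FPKM. *Neurod2* and *Neurod6* stand higher at E14 than at E11, the other 7 genes stand lower, and *Neurog1*, *Neurod4* and *Nhlh1* lie under 1 FPKM in both E14 libraries.

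The neurogenins, which start the program, both fell. *Neurog1* had 5.41 FPKM (CTL) and 6.57 (*Stat3* cKO) at E11, and 0.240 (CTL) and 0.318 (*Stat3* cKO) at E14. It was thus well measured at E11 and low at E14, where its level rests on an estimated 11 and 16 fragments. It fell 22.5-fold in CTL [12.4 to 45.6] and 20.6-fold in *Stat3* cKO [12.5 to 36.6].

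*Neurog2*, the main cortical neurogenin, had 40.8 FPKM (CTL) and 43.8 (*Stat3* cKO) at E11, and 13.0 (CTL) and 20.9 (*Stat3* cKO) at E14. The E14 libraries were both below the E11 libraries, and *Neurog2* was still the third highest of the 9 genes there. It fell 3.13-fold in CTL [2.89 to 3.39] and 2.10-fold in *Stat3* cKO [1.97 to 2.25]. *Neurog2* exceeded *Neurog1* 7.55-fold in E11 CTL and 54.4-fold in E14 CTL, and 6.67-fold and 65.5-fold in *Stat3* cKO.

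The NeuroD genes, which drive neuronal differentiation, split into a pair that fell and a pair that rose. *Neurod1* had 10.3 FPKM (CTL) and 8.90 (*Stat3* cKO) at E11, and 3.60 (CTL) and 3.23 (*Stat3* cKO) at E14. Its fall was 2.86-fold in CTL [2.49 to 3.29] and 2.76-fold in *Stat3* cKO [2.38 to 3.20], with little between the genotypes. *Neurod4* had 4.87, 5.28, 0.519 and 0.697 FPKM in the same order of libraries. It fell more steeply than *Neurod1*, 9.39-fold in CTL [6.98 to 12.9] and 7.57-fold in *Stat3* cKO [5.88 to 9.87].

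*Neurod2* had 3.95 FPKM (CTL) and 2.21 (*Stat3* cKO) at E11, and 39.5 (CTL) and 33.9 (*Stat3* cKO) at E14. It went from the lowest of the 9 genes at E11 to the second highest at E14, rising by 3.32 on the log2 scale in CTL [3.17 to 3.48] and by 3.94 in *Stat3* cKO [3.72 to 4.17]. *Neurod6*, a marker of cortical and hippocampal excitatory neurons, had 8.14 FPKM (CTL) and 3.76 (*Stat3* cKO) at E11, and 104 (CTL) and 72.0 (*Stat3* cKO) at E14. It was the highest of the 9 genes in both E14 libraries, having risen 12.8-fold in CTL [11.8 to 14.0] and 19.1-fold in *Stat3* cKO [16.6 to 22.2].

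The makeup of the family changed accordingly. The summed level of the 4 NeuroD genes was 27.3 FPKM (CTL) and 20.2 (*Stat3* cKO) at E11, and 148 (CTL) and 109.9 (*Stat3* cKO) at E14. *Neurod2* and *Neurod6* together made up 44.3% of it (CTL) and 29.6% (*Stat3* cKO) at E11, and 97.2% (CTL) and 96.4% (*Stat3* cKO) at E14. *Neurod1* alone made up 37.8% and 44.2% at E11, and 2.44% and 2.94% at E14, in CTL and *Stat3* cKO.

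**Figure D2:**
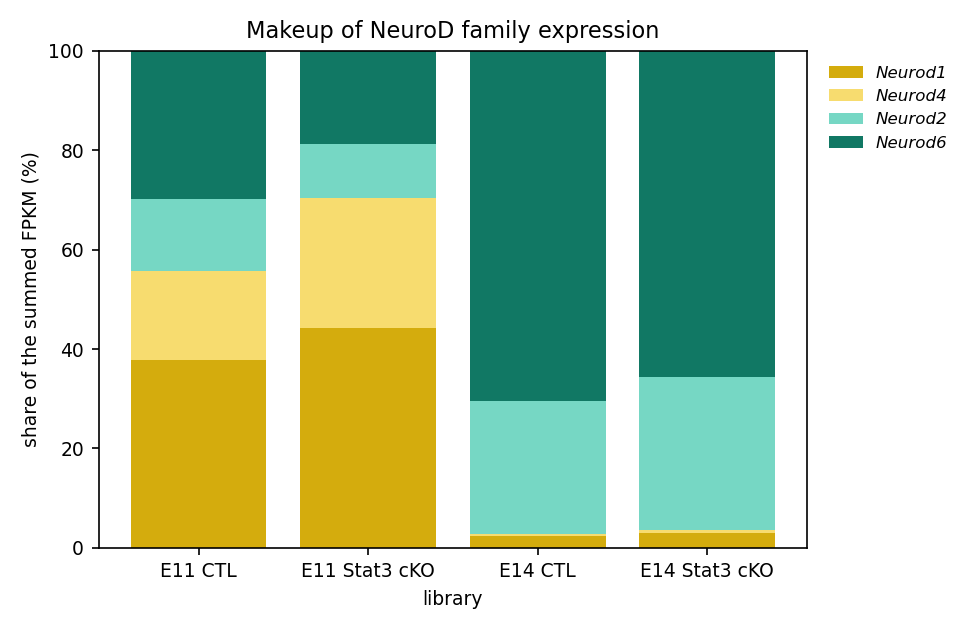
Share of each NeuroD gene in the summed FPKM of the 4 genes (%), 1 stacked bar per library. *Neurod1* and *Neurod4* take more than *Neurod2* and *Neurod6* in both E11 libraries, and *Neurod2* and *Neurod6* take 97.2% (CTL) and 96.4% (*Stat3* cKO) at E14.

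The NHLH genes, markers of newborn neurons, both fell. *Nhlh1* had 5.42 FPKM (CTL) and 3.36 (*Stat3* cKO) at E11, and 0.368 (CTL) and 0.581 (*Stat3* cKO) at E14. *Nhlh2* was the second highest of the 9 genes at E11, with 20.4 FPKM (CTL) and 15.7 (*Stat3* cKO), and had 1.78 and 0.852 FPKM at E14. In CTL, *Nhlh1* fell 14.7-fold [9.84 to 23.0] and *Nhlh2* 11.5-fold [9.88 to 13.4]. In *Stat3* cKO, *Nhlh1* fell 5.77-fold [4.13 to 8.22] and *Nhlh2* 18.4-fold [14.98 to 22.9]. The intervals of the pair overlapped in CTL, and in *Stat3* cKO *Nhlh2* fell more.

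*Eomes*, the intermediate progenitor gene, moved least in CTL, and in *Stat3* cKO its interval overlapped that of *Neurog2*. It had 10.7 FPKM (CTL) and 14.8 (*Stat3* cKO) at E11, and 8.50 (CTL) and 7.33 (*Stat3* cKO) at E14. All 4 levels lay within a narrow range beside the other genes. The level at E11 was 1.26-fold that at E14 in CTL [1.16 to 1.38], under the 2-fold limit, and 2.02-fold in *Stat3* cKO [1.85 to 2.21], just over it. *Tbr1*, the related T-box gene of early cortical neurons, had 6.63 and 5.84 FPKM in CTL and 4.97 and 3.84 in *Stat3* cKO, at E11 and E14.

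Read as an order of levels, E11 CTL ran from *Neurog2* through *Nhlh2*, *Eomes*, *Neurod1*, *Neurod6*, *Nhlh1*, *Neurog1* and *Neurod4* to *Neurod2*. Counting intervals of neighbors overlapped between *Eomes* and *Neurod1* and among *Nhlh1*, *Neurog1* and *Neurod4*, so these are not ordered by the data. At E14 both genotypes gave the order *Neurod6*, *Neurod2*, *Neurog2*, *Eomes*, *Neurod1*, *Nhlh2*, *Neurod4*, *Nhlh1*, *Neurog1*. The last 3 overlapped their neighbors in CTL and the last 4 did in *Stat3* cKO. In E11 *Stat3* cKO, *Neurod6* was seventh and overlapped *Nhlh1*, and *Nhlh2* overlapped *Eomes*.

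Genes of other cell types and brain regions moved with stage. The 5 mesenchyme markers (*Col1a1*, *Col1a2*, *Col3a1*, *Pdgfrb*, *Lum*) summed to 1143 FPKM in E11 CTL and 1057 in E11 *Stat3* cKO, and to 12.3 and 8.67 at E14, and all 5 fell at least 2-fold in both genotypes. The 8 midbrain and hindbrain genes, such as *En2*, summed to 11.2 and 9.99 FPKM at E11 and to 0.844 and 0.605 at E14. The 7 microglia markers summed to 5.74 and 4.53 FPKM at E11 and to 0.624 and 0.611 at E14, where *Aif1* was listed at 0 in CTL. For 5 endothelial markers the sums were 4.43 and 4.67, then 1.04 and 1.61 FPKM, and for 3 erythroid markers 2.25 and 0.548, then 0.235 and 0.215 FPKM. The 5 dorsal telencephalon genes summed to 100.7 and 102.4 FPKM at E11 and to 100.2 and 102.3 at E14, with 3 genes higher and 2 lower at E14 in each genotype. Of these, *Emx1* had 10.1 and 5.93 FPKM at E11 and 24.2 and 19.3 at E14, and *Pax6* 44.2 and 48.6, then 14.6 and 19.0. Of the 7 excitatory neuron markers, 5 were higher and 2 lower at E14 in each genotype. Their sums were 46.1 FPKM (CTL) and 38.1 (*Stat3* cKO) at E11, and 41.7 and 35.1 at E14. Among them, *Slc17a6* went from 23.9 to 3.70 FPKM in CTL and from 18.1 to 2.45 in the cKO. All 5 ventral telencephalon genes that passed the minimum were lower in each genotype. Of 9 GABAergic markers, 8 (CTL) and 6 (*Stat3* cKO) were lower. Of 8 radial glia markers, 6 were higher in each genotype. The part of these differences in the fall of the early bHLH genes and in the rise of *Neurod2* and *Neurod6* was not tested.

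The other neural bHLH genes also went both ways. Of 11 listed, 6 passed the minimum of 1 FPKM, and in each genotype 3 of them rose and 3 fell by 2-fold or more from E11 to E14. Over all genes, 14.6% rose and 12.5% fell by that margin in CTL, and 10.1% and 11.7% in *Stat3* cKO. *Bhlhe22*, a bHLH gene of postmitotic cortical neurons, had 7.05 and 7.24 FPKM at E11 and 65.2 and 44.8 at E14, and so rose with *Neurod2* and *Neurod6*. *Olig2*, a bHLH gene of ventral and oligodendrocyte progenitors, had 11.9 and 15.5 FPKM at E11 and 168 and 134 at E14, and *Olig1* 1.64 and 2.85, then 345 and 311. Among those that fell, *Atoh8* had 0.551 and *Olig3* 0.0959 FPKM in E14 CTL, and both passed the minimum through their E11 levels. Of the partners, the E proteins *Tcf3*, *Tcf4* and *Tcf12*, with 43.0 to 119 FPKM, none passed 2-fold at either stage or in either genotype. Of the inhibitory ID genes, *Id1* and *Id3* were at least 2-fold lower at E14 in both genotypes, at 90.2 and 341 FPKM in E11 CTL and 40.5 and 131 in E14 CTL.

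Between genotypes the differences were smaller. At E14, none of the 9 genes was at least 2-fold higher in *Stat3* cKO than in CTL and 1 was at least 2-fold lower, where 1.85% and 1.69% of 12430 genes were higher and lower by that margin. At E11 the counts were again 0 and 1, against 0.209% and 1.12% of 12430 genes. For the log2 ratio between the genotypes (*Stat3* cKO over CTL) the median of the 9 genes was -0.16 at E14 and -0.21 at E11, beside -0.079 and 0.059 over all genes. The stage and genotype comparisons share libraries, so a high or low value in 1 library enters both.

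**Figure D3:**
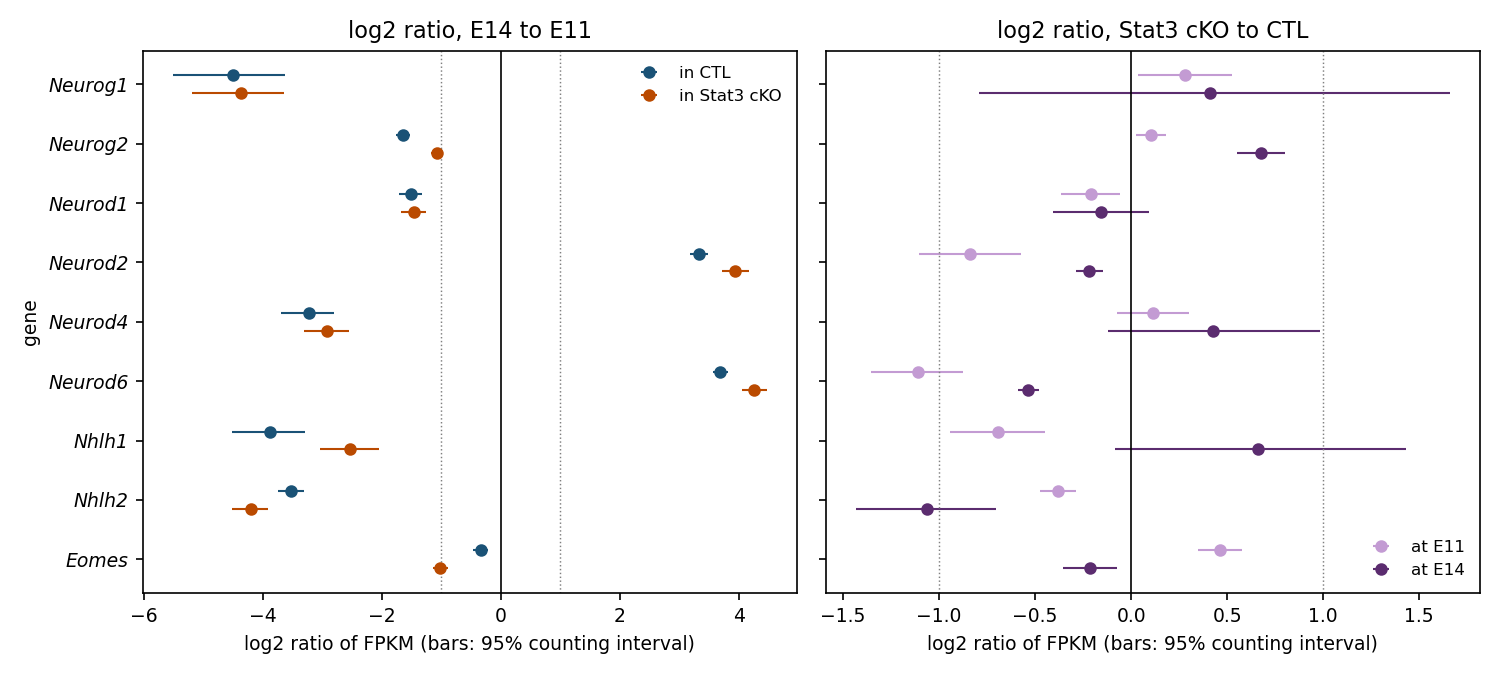
Log2 ratio of FPKM for each of the 9 genes, E14 to E11 on the left (in CTL and in *Stat3* cKO) and *Stat3* cKO to CTL on the right (at E11 and at E14). Bars are 95% counting intervals and dotted lines mark 2-fold. Stage ratios reach -4.49 and 4.26, whereas genotype ratios stay between -1.11 and 0.68, with *Neurog2* above 0 and *Neurod6* and *Nhlh2* below 0 at both stages.

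At E14 *Neurog2* stood above CTL and *Neurod6* farthest below it among 5 genes of the cortical sequence, with the intervals of the other 3 overlapping. *Neurog2*, at 20.9 FPKM in *Stat3* cKO against 13.0 in CTL, had a ratio of 1.60 [1.46 to 1.75]. *Eomes* was at 0.863 times CTL [0.782 to 0.952], *Neurod2* at 0.860 [0.819 to 0.902] and *Neurod6* at 0.690 [0.664 to 0.717]. The interval of *Eomes* includes 1 with either other scaling. For *Neurod1* the ratio was 0.896 [0.754 to 1.07], which counting error alone can cover. All 5 differences were short of 2-fold. Set against the level of *Eomes* in the same library, that of *Neurog2* was 1.54 times as high in CTL and 2.84 times in *Stat3* cKO at E14, and 3.80 and 2.96 times at E11.

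*Nhlh2* was the 1 gene past 2-fold at E14, with 0.852 FPKM in *Stat3* cKO and 1.78 in CTL, a ratio of 0.478 [0.370 to 0.615]. The estimated fragments behind these levels were 97 and 184. When all genes were centered on a median of 0, or scaled by the upper quartile, its log2 ratio of -1.06 moved to -0.99 and -0.97, which is short of 2-fold. *Neurog1*, *Neurod4* and *Nhlh1* had ratios of 1.33 [0.578 to 3.16], 1.34 [0.919 to 1.98] and 1.58 [0.943 to 2.70], and at 11 to 71 estimated fragments a difference was not detectable in them.

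At E11, *Neurod6* was the gene past 2-fold, with 3.76 FPKM in *Stat3* cKO and 8.14 in CTL, a ratio of 0.463 [0.391 to 0.545]. *Neurod2* followed at 0.560 [0.465 to 0.672] and *Nhlh1* at 0.619 [0.521 to 0.733]. *Nhlh2* had a ratio of 0.767 [0.718 to 0.819] and *Neurod1* of 0.864 [0.777 to 0.959]. Above CTL were *Eomes*, at 1.38 [1.27 to 1.49], *Neurog1*, at 1.22 [1.03 to 1.44], and *Neurog2*, at 1.07 [1.02 to 1.13]. For *Neurod4* the ratio was 1.08 [0.951 to 1.23], and with either other scaling the intervals of *Neurog1* and *Neurog2* include 1 as well. *Stat3* itself was at 0.911 times CTL in these E11 libraries, so the differences at E11 were measured where *Stat3* RNA differed little.

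In 7 of the 9 genes *Stat3* cKO lay on the same side of CTL at both stages, beside 44.6% of 12419 genes. Of all genes, 61.8% lay above CTL at E11 and 60.1% below it at E14, which lowers that share. It was taken for the deposited values only. *Neurog1*, *Neurog2* and *Neurod4* were above CTL at both, and *Neurod1*, *Neurod2*, *Neurod6* and *Nhlh2* below CTL at both. The E11 and E14 pairs share no library. For *Neurog1*, *Neurod1* and *Neurod4* the interval included 1 at E14, and for *Neurod4* at E11 too. *Nhlh1* and *Eomes* changed side, and the interval of *Nhlh1* at E14 also included 1.

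Genes known to act downstream of proneural factors were set beside them. This list, like the other gene lists here, was chosen with earlier results of these data known. Its counts beside the background therefore describe the list and are not independent support. Of 13 listed, 12 passed the minimum, and at E14 10 of the 12 were above CTL in *Stat3* cKO (39.9% of all genes), 4 of them by 2-fold or more (background 1.85%), with a median log2 ratio of 0.56. *Dll3*, a Notch ligand gene switched on by proneural factors, went from 18.5 FPKM in CTL to 44.5 in *Stat3* cKO. *Mfng*, a modifier of Notch, had 12.7 and 26.8 FPKM, *Gadd45g*, a gene of cell cycle exit, 26.5 and 58.5, and *Cdkn1c*, which encodes the cell cycle inhibitor p57, 16.0 and 55.6. *Dll1*, the main proneural Notch ligand gene, was just short of 2-fold, at 29.0 and 57.8 FPKM, and *Btg2*, a marker of neurogenic divisions, was at 43.8 and 81.8. The list was split: the other 6 genes (*Rnd2*, *Insm1*, *Hes6*, *Srrm4*, *Cbfa2t2* and *Tbr1*) had ratios of 0.658 to 1.16, and the median lies in the gap between the 2 sets. With either of the other scalings 5 of the 12 reached 2-fold. *Dll1*, *Btg2* and these 6 genes were added to the text once their values were known.

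None of the 12 passed 2-fold at E11, where 9 were above CTL (8 with either other scaling), beside 61.8% of all genes, and the median was 0.18. There *Dll1* went from 22.3 FPKM in CTL to 27.4 in *Stat3* cKO, and *Dll3* had 21.6 and 25.8. *Tbr1*, which acts late in the sequence, was lower in *Stat3* cKO at both stages, with log2 ratios of -0.42 at E11 and -0.60 at E14, short of 2-fold.

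**Figure D4:**
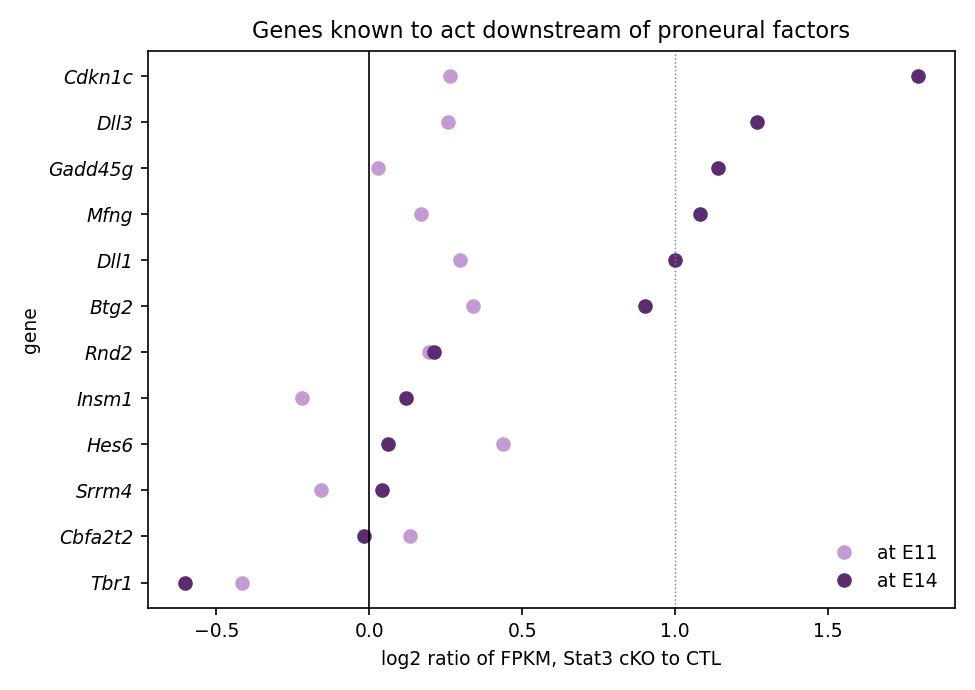
Log2 ratio of FPKM of *Stat3* cKO to CTL for the 12 genes known to act downstream of proneural factors that passed 1 FPKM, ordered by the ratio at E14, with a dotted line at 2-fold. At E14 *Cdkn1c*, *Dll3*, *Gadd45g* and *Mfng* lie past 2-fold and *Dll1* and *Btg2* close to it, while at E11 all 12 lie between -0.42 and 0.44.

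The repressors that oppose proneural genes were split. *Hes5*, a Notch effector, had 88.5 FPKM (CTL) and 137 (*Stat3* cKO) at E11, and 124 (CTL) and 294 (*Stat3* cKO) at E14. *Hes1* had 34.6, 28.7, 27.3 and 17.2 FPKM in the same order. Of the 4 HES and HEY genes that passed the minimum, *Hes5* and *Hey2* passed 2-fold at E14 (2 genes), and *Hey2* went from 0.802 FPKM in CTL to 3.58 in the cKO. None of the 4 ID genes passed 2-fold between genotypes at either stage.

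Markers of other cells also differed between the E14 libraries, where 60.1% of all genes were lower in *Stat3* cKO and 39.9% higher. Of 12 general neuron markers, 10 were lower in *Stat3* cKO (9 with upper-quartile scaling), none by 2-fold, with a median log2 ratio of -0.26. All 7 markers of excitatory neurons were lower (6 with either other scaling), with a median of -0.25. Of 8 radial glia markers 7 were higher, with a median of 0.26. All 5 ventral telencephalon genes that passed the minimum were higher, and *Gsx2* (2.56 and 6.05 FPKM), *Dlx2* (0.613 and 1.55 FPKM) and *Nkx2-1* (1.16 and 2.65 FPKM) by at least 2-fold. Of 9 GABAergic markers, which share *Dlx1* and *Dlx2* with the ventral list, 8 were higher. Of the 5 dorsal telencephalon genes, which include *Pax6* from the radial glia list, 2 were higher and 3 lower. At E11, 61.8% of all genes were higher in *Stat3* cKO and 38.2% lower. There 5 of the 7 excitatory markers were lower (6 with either other scaling), with a median of -0.40. Of the 12 neuron markers 8 were lower (11 with either other scaling). All 5 ventral genes, 7 of the 8 radial glia markers and 5 of the 9 GABAergic markers were higher at E11. The dorsal list again had 2 higher and 3 lower. The part of these differences in the genotype ratios of *Neurog2*, *Neurod2* and *Neurod6* was not tested. The list of 7 intermediate progenitor markers, which holds *Eomes* and *Neurog2*, had 4 members above and 3 below CTL at E14. These lists share genes and are not separate evidence: *Btg2*, *Insm1* and *Gadd45g* are also among the downstream genes, *Elavl4* among the neuron markers, *Tbr1* among both the downstream genes and the excitatory markers, and *Hes5* among the radial glia markers.

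Likeness of profiles was measured over the 4 libraries as the Euclidean distance between log2 FPKM values, each gene centered on its own mean, among 12419 genes with a value above 0 in every library. With 4 points many genes can lie close together, and nothing is drawn from closeness about function. *Neurod6* had *Neurod2* as its nearest gene, at a distance of 0.45, which was also the closest pair among the 9, followed by *Ppp1r14c* and *Arap2* at 0.48. The next pairs were *Neurod4* and *Nhlh1* at 0.61, and *Neurod1* and *Neurog2* at 0.64. The farthest pair was *Neurod6* and *Neurog1* at 8.49.
The nearest gene to *Neurod4* was *Otx2* (distance 0.060), followed by *Mrc2* and *Tmem37* at 0.078 and 0.085. *Otx2* had 31.9 FPKM (CTL) and 35.0 (*Stat3* cKO) at E11, and 3.56 (CTL) and 4.78 (*Stat3* cKO) at E14. *Neurog2* lay closest to *Tmem255a*, *Cntfr*, the CNTF receptor gene, and *Zfp36l1*, at distances of 0.061 to 0.078. *Nhlh2* lay closest to *Ebf3*, with 13.1, 10.1, 0.990 and 0.534 FPKM (distance 0.18), followed by *Aldh1a2* and *Gpnmb* at 0.22 and 0.23. For *Nhlh1* the nearest were *Nxph4*, *C1qc* and *Fzd6*, for *Neurog1* *Kank4*, *Ccdc3* and *Fezf1*, for *Neurod1* *Gse1*, *Tmtc4* and *Rgmb*, and for *Neurod2* *Arap2*, *Gas6* and *Ppp1r14c*. *Eomes* lay within 0.074 of *Ammecr1*, *Hnrnpa1* and *Snrpd3*.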

How the data were processed

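RNA of cultured neural progenitors was sequenced on an Illumina HiSeq system, with 1 library for each of 4 groups. According to the study's methods, the authors checked reads with FastQC and ran the TopHat-Cufflinks workflow, and they deposited FPKM values, 1 for each of 21091 entries in each library. The submitters' notes name Bowtie 0.12.2 and the builds mm8 and mm9. The annotation, other tool versions and any scaling between libraries are not given in the sources used here.

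FPKM values were used as deposited. Ratios were plain, with no pseudocount, and a gene at 0 in either library had none. A mean of 1 FPKM over the 4 libraries was required for the background, which left 12449 genes, all 9 genes among them. *Neurog1*, *Neurod4* and *Nhlh1* passed through their E11 levels. Estimated fragments were FPKM multiplied by the transcript length in GENCODE M21 (the transcript whose span was closest to the listed one), divided by the value of 1 fragment. They were used for exact Poisson intervals of a level and exact intervals of a ratio given the summed fragments, and not for a test. The steps were tested on simulated data. Python 3.11.15, numpy 2.4.6, pandas 2.3.3, scipy 1.17.1 and matplotlib 3.10.9 were used.

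The 9 genes and the other gene lists were chosen with earlier results of these data known. Named outside the 9 were *Stat3*, list genes that reached 2-fold in a comparison or mark a cell type, and the 3 nearest profiles of each gene. List genes short of 2-fold and *Ddx3y* were added after their values were seen. The values of 1 list gene are not reported here. Alternatives were pseudocounts of 0.1 and 1, the median of all genes set to 0, upper-quartile scaling, no minimum or one of 5 FPKM, and thresholds of 1.5 and 3.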

Additional observations from a re-analysis of the deposited data

Results flagged for a closer look

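*Nhlh1* and *Eomes* lay on opposite sides of CTL at the 2 stages, a difference that was not tested. The log2 ratio of *Stat3* cKO to CTL for *Nhlh1* was -0.69 at E11 and 0.66 at E14, which is 1.35 higher at E14, on an estimated 25 and 43 fragments at E14 in CTL and *Stat3* cKO. The counting interval of its E14 ratio, 1.58 [0.943 to 2.70], includes 1. For *Eomes* the log2 ratio was 0.46 at E11 and -0.21 at E14, a difference of -0.68, with estimates of 791 to 1284 fragments in the 4 libraries. The interval of its E14 ratio includes 1 with either other scaling.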

How the results depend on the processing

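With 1 library a group no replicate could be left out. A paired analysis was likewise not possible, and no result came from a test. A fit with stage and genotype as additive terms was not run. Of 180 alternative values for single genes, 0 changed sign and 30 left the counting interval. A pseudocount of 1 shrank the falls of low genes: in CTL the log2 ratio of E14 to E11 went from -4.49 to -2.37 for *Neurog1*, from -3.88 to -2.23 for *Nhlh1* and from -3.23 to -1.95 for *Neurod4*. In *Stat3* cKO these became -2.52, -1.46 and -1.89, and *Nhlh2* went from -4.20 to -3.17. Scaling moved every gene together: in CTL, setting the median of all genes to 0 shifted the log2 ratio of E14 to E11 by -0.21 and upper-quartile scaling by -0.24, and every other shift was smaller than 0.1 in size. The count of genes at least 2-fold lower in *Stat3* cKO at E14 (1, *Nhlh2*) was 0 with pseudocounts of 0.1 or 1, with either scaling and with a threshold of 3. At E11 this count (1, *Neurod6*) was 0 with a pseudocount of 1 or a threshold of 3, and 3 with a threshold of 1.5. With a threshold of 1.5, 2 genes (*Neurog2* and *Nhlh1*) were higher in *Stat3* cKO at E14. From E11 to E14, a minimum of 5 FPKM, which leaves out *Neurog1*, *Neurod4* and *Nhlh1*, gave 3 lower genes in CTL and 4 in *Stat3* cKO, with medians of -0.93 and -1.04. A threshold of 3 left 4 lower genes in *Stat3* cKO. The other 80 of 94 summary values stayed within 1.5 times the count, or within 0.25 of the median with the same sign. For the 3 genes under 1 FPKM at E14, depth limits what can be said of genotype there.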
